A study of Mus musculus with 2 samples.

Results

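The p24 proteins, encoded by the Tmed genes, are a family of small membrane proteins of the early secretory pathway. Listed N6-methyladenosine (m6A) positions in 9 of these genes, Tmed1, Tmed2, Tmed3, Tmed4, Tmed5, Tmed7, Tmed8, Tmed9 and Tmed10, are described here. The genes were chosen by their listed positions, with the positions that several tools repeat in the knockout already in view, so the counts over the family are a description and carry no test. Their exons held 154 of the 160430 listed positions of the series, and they are 9 of the 10912 genes with a listed position. No position was listed in exons of Tmed6 or Tmed11, the other family members in the annotation.

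The data come from poly(A) RNA of mouse 129 embryonic stem cells sequenced as native molecules on nanopores (direct RNA sequencing, DRS), with 1 library of wild-type cells (WT) and 1 of Mettl3 knockout cells (KO). In the KO cells, internal exons of Mettl3, the catalytic subunit of the main mRNA m6A methyltransferase, had been replaced on both alleles with puromycin and hygromycin resistance genes by CRISPR–Cas9, and colonies resistant to both drugs were grown. The study compared computational tools, and 17 lists of positions from 10 tools are used. Tombo, MINES, Nanom6A, m6Anet, ELIGOS and Epinano were run on each library alone (single-mode) and xPore was fitted to both libraries together (compare-mode), and each has a WT and a KO list, while Nanocompore, DiffErr and DRUMMER set WT against KO and each have 1 list. A position is "in WT or comparison" when a WT list or a comparison list holds it.

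The lists hold positions and no methylation rate, score or read count, so the depth behind each position is unknown and a listing cannot be read as an amount of m6A. The study tested only sites above a minimum number of reads, which was higher for m6Anet than for the other tools. Several deposited lists are longer or shorter than the sets of sites the study describes, the comparison lists being among the shorter ones. They may have been made at other cut-offs, so shares taken from them, and the lack of a comparison listing, hold for these lists only. A gene without positions may have had few reads, which was not tested. With 1 library per condition there is no replicate error, and no difference between WT and KO was tested. Intervals in brackets are 95% Wilson intervals of a share and cover counting error only. They treat positions of a gene, and listings of a position by several tools, as independent, which they are not, so they may be too narrow. Mettl3 itself had 13 positions in WT or comparison and 5 in KO, and since the lists give no read counts they do not check the deletion. The study reports that mass spectrometry found almost no m6A in the KO mRNA. It also cites earlier work that verified the knockout by western blot. Of the stem cell markers, 9 of 10 had a listed position, against 3 of 4 markers of feeder fibroblasts and 1 of 3 of primitive endoderm. Of all coding genes in the annotation, 46.9% had one.

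p24 proteins have a short cytosolic tail that binds the COPI and COPII coats, a single membrane span and a lumenal GOLD domain, and they cycle between the endoplasmic reticulum and the Golgi as hetero-oligomers that take cargo such as GPI-anchored proteins into vesicles. They fall into 4 subfamilies: Tmed10 is the delta member, Tmed2 the beta member, Tmed4 and Tmed9 are alpha members, and Tmed1, Tmed3, Tmed5 and Tmed7 are gamma members. Tmed8 also has a GOLD domain, with a coding sequence of 981 nt against 606 to 708 nt in the others, and is not placed in these subfamilies. m6A is deposited by the Mettl3–Mettl14 complex within RRACH (R is A or G, H is A, C or T), and in mammalian mRNA it is known to be frequent near stop codons and in long last exons. All 154 positions of the family were an A in RRACH. The study tested sites in this motif, so this was set by its filter and is not a result about the family.

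Sequences are shown for the delta member Tmed10 and the alpha member Tmed9. They surround the positions in a comparison list and those repeated in KO by at least 4 tools. Among these are the positions with 9 and 10 tools that were absent from KO and, in the same 2 genes, positions that several tools repeated in KO. Each sequence is a window of 21 nt, 5′ to 3′ on the strand of the gene, read from GRCm38 with the RRACH 5-mer in capitals and the listed A at its centre.
Tmed10, chr12:85343481-85343501 (minus strand, coding sequence, 61 nt before the stop codon): gcctcattGGACTagccacct
Tmed10, chr12:85343371-85343391 (minus strand, 3′ UTR, 49 nt after the stop codon): catcgctgGGACAtgcctggc
Tmed10, chr12:85343241-85343261 (minus strand, 3′ UTR, 179 nt after): gtcaatgaGGACTttaatgca
Tmed10, chr12:85343219-85343239 (minus strand, 3′ UTR, 201 nt after): taggatttGGACTggttttgc
Tmed9, chr13:55597039-55597059 (plus strand, 3′ UTR, 61 nt after): taggaggaGGACTggttttca
Tmed9, chr13:55597077-55597097 (plus strand, 3′ UTR, 99 nt after): ggagagagGGACTgtaagcgt
Tmed9, chr13:55597154-55597174 (plus strand, 3′ UTR, 176 nt after): cagtagtgGGACAagccctcc
Tmed9, chr13:55597180-55597200 (plus strand, 3′ UTR, 202 nt after): ccactcctGGACCttttgcag
Tmed9, chr13:55597566-55597586 (plus strand, 3′ UTR, 588 nt after): ccaagcagAGACTttggtgct

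The gamma member Tmed1 held the other positions that were in a comparison list, and a coding position listed in KO alone. Distances are counted from the first base of the stop codon.
Tmed1, chr9:21509995-21510015 (minus strand, coding sequence, 510 nt before the stop codon): tagtcttgAGACCgagtacca
Tmed1, chr9:21508107-21508127 (minus strand, 3′ UTR, 58 nt after): cacctcccAGACTcagatgag
Tmed1, chr9:21507738-21507758 (minus strand, 3′ UTR, 427 nt after): tcttgccaGGACAgtcacttt

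Across the family, 137 positions were in WT or comparison, all of them in a WT list, and 101 were in KO. The KO positions were 65.6% of the family's 154 (57.8 to 72.6), and over all listed positions the share was 67.1%. Of the 137 positions, 84 (61.3%, 53.0 to 69.1) were also in a KO list of some tool, against 59.0% over the series, and 53 were in none. A further 17 of the 101 KO positions were in KO only (16.8%, 10.8 to 25.3), against 29.2% over the series, 14 of them by 1 tool. A single tool listed 79 of the 137 positions in WT or comparison (57.7%, 49.3 to 65.6), against 65.3% over the series.

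The number of positions differed between the genes. Tmed10 had 24, Tmed5 23, Tmed7 21, Tmed2 18, Tmed4 17, Tmed9 15, Tmed1 14, Tmed3 13 and Tmed8 9. The median over genes with a listed position was 13, and 2052 genes had at least as many positions as Tmed10. Per RRACH of the reference transcript, which sets aside transcript length, Tmed1 was highest with 82.4% of its RRACH listed and Tmed9 followed with 68.2%, Tmed2 with 66.7%, Tmed10 with 64.0%, Tmed4 with 63.0% and Tmed7 with 60.0%. Tmed3 (48.1%) and Tmed5 (42.6%) were lower and Tmed8 was lowest with 9.57%. The median over the 9855 coding genes with a listed position and at least 10 RRACH was 36.5%, with quartiles at 18.8% and 55.6%. Against these genes, 6 of the 9 were above the upper quartile and Tmed8 was below the lower one.

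**Figure D1:**
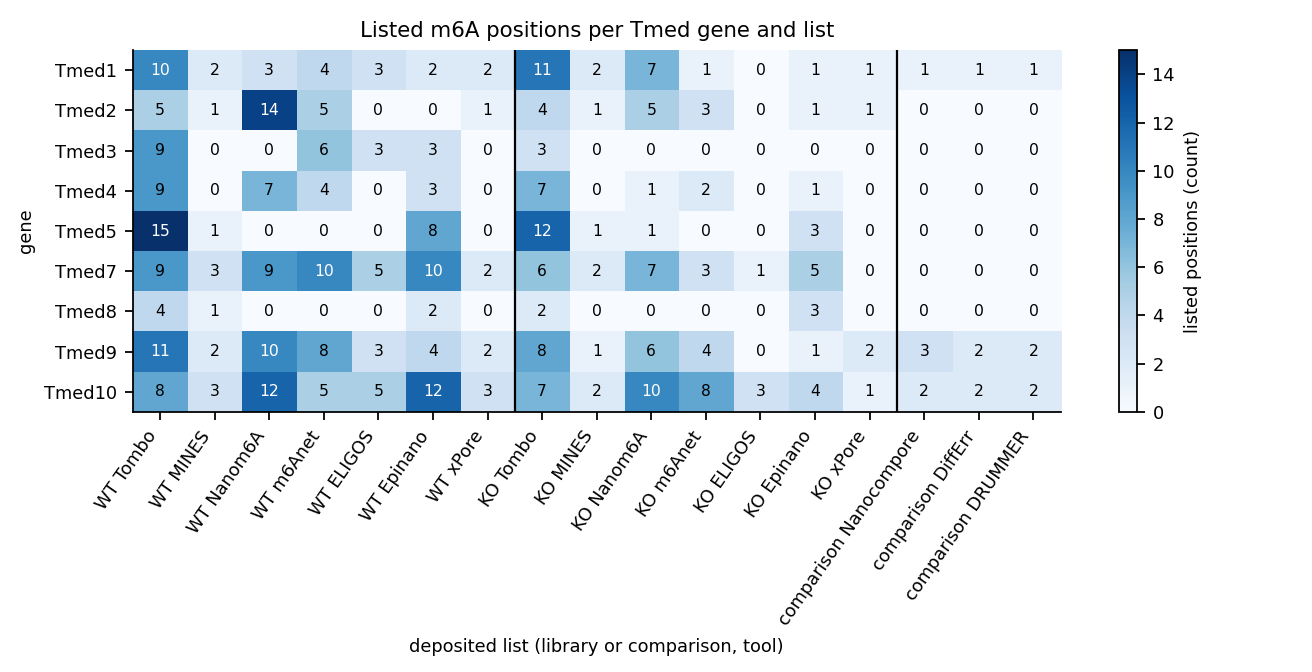
Number of listed positions (cell value and colour) in each of the 9 Tmed genes (rows) and each of the 17 lists (columns), with black lines between WT, KO and comparison lists. The comparison lists hold positions in Tmed1, Tmed9 and Tmed10 only, and Tmed5 has 15 WT Tombo positions but 0 WT positions from Nanom6A and m6Anet.

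Support by several tools was unequal among the genes. The tools are not independent of each other. MINES takes values from Tombo as input, and Nanom6A starts from signal that Tombo assigned to bases. DiffErr and DRUMMER listed the same positions in these genes. A number of tools is therefore not a number of separate observations. At least 3 of the 10 tools listed 25 of the 137 positions in WT or comparison (18.2%, 12.7 to 25.6), against 12.6% of positions over the series. At least 6 tools listed 14 (10.2%, 6.19 to 16.4), against 1.98%. These 14 lay in 4 genes, with 4 in Tmed10, 4 in Tmed7, 3 in Tmed9 and 3 in Tmed1. The highest number of tools at a position was 10 in Tmed10, 9 in Tmed9, 7 in Tmed1 and 6 in Tmed7. It was 3 in Tmed2 and Tmed3 and 2 in Tmed4, Tmed5 and Tmed8.

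**Figure D2:**
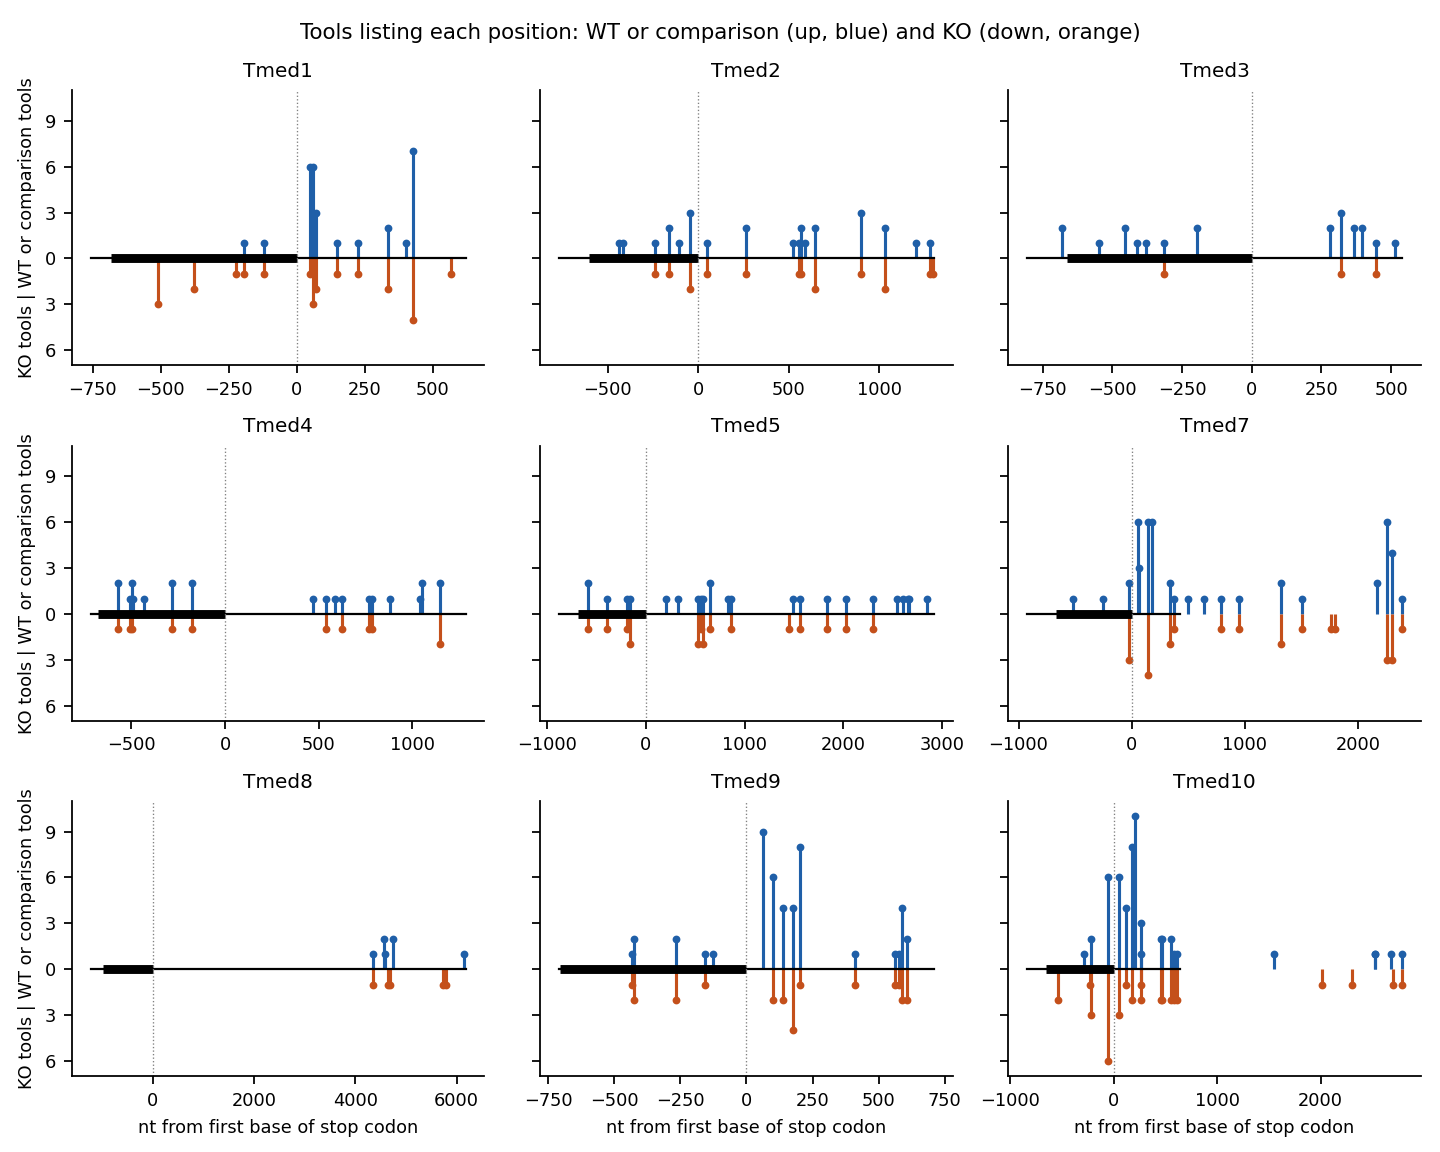
Tools listing each position in WT or comparison (up, blue, of 10) and in KO (down, orange, of 7) along each gene, with the distance from the first base of the stop codon in nt on the x axis, a thick bar for the coding sequence and a thin line for the untranslated regions. Positions of Tmed7 and Tmed10 past the end of the thin line lie in retained-intron transcripts, and lines of at least 6 tools stand within the first 202 nt after the stop codon in Tmed1, Tmed7, Tmed9 and Tmed10, with others at 427 nt in Tmed1, 2255 nt in Tmed7 and 61 nt before the stop codon in Tmed10.

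Tmed10, the delta member, is known to bind COPI through its tail and to be needed for normal levels of other p24 proteins. Its position 201 nt after the stop codon (chromosome 12, 85343229, GGACT in exon 5) was listed by all 10 tools in WT or comparison and by none in KO. Series-wide 62 positions were listed by all 10 tools, and 9 of them were in no KO list. The GGACT 22 bases upstream, at 85343251, was listed by Tombo, Nanom6A, m6Anet, ELIGOS, Epinano and xPore in WT and by DiffErr and DRUMMER, 8 tools in all. In KO it was listed by Tombo and MINES, and MINES did not list it in WT. Both positions therefore had comparison listings, while only the one further from the stop codon was free of KO listings.

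The GGACT 61 nt before the stop codon of Tmed10 (85343491), in the coding part of the same exon, had the opposite pattern. All 6 single-mode tools listed it in WT and all 6 listed it again in KO, and no comparison list held it. Series-wide 5 positions were listed in both libraries by at least 6 tools. It lies 262 nt from the position listed by all 10 tools, and Tmed10 was the only gene of the series that held both a position listed by all 10 tools and absent from KO and a position repeated by at least 6 tools. Between the pair, the GGACA 49 nt after the stop codon (85343381) was listed in WT by Tombo, Nanom6A, ELIGOS, Epinano and xPore and by Nanocompore, and in KO by Tombo, Epinano and xPore.

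The coding sequence of Tmed10 has a near-identical processed copy, Tmed10-ps, 99.4% identical over 660 nt. The 21-nt windows of all 5 coding positions of Tmed10, the one repeated in KO by 6 tools included, are found unchanged in Tmed10-ps, so these windows alone do not tell reads of the copies apart. No list placed a position in Tmed10-ps. Tmed10 also had 5 positions in KO that were in no WT list, and 8 of its 24 positions lay beyond the 3′ end of the coding transcript, in a retained-intron transcript.

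Tmed9, an alpha member, had all 15 of its positions in WT and 13 of them in KO as well. Its GGACT 61 nt after the stop codon (chromosome 13, 55597049, exon 5) was listed by 9 tools, that is by every tool except MINES, and by none in KO. The GGACC at 55597190, 202 nt after the stop codon, was listed by 8 tools, among them DiffErr and DRUMMER, and in KO by xPore alone, a tool that did not list it in WT. The GGACT at 55597087 was listed by 5 tools in WT and by Nanocompore, and in KO by Tombo and m6Anet. The AGACT at 55597576, 588 nt after the stop codon, was listed by Tombo, Nanom6A, m6Anet and Nanocompore, with Tombo and xPore in KO.

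Between these, the GGACA of Tmed9 at 55597164, 176 nt after the stop codon, was listed by Tombo, MINES, Nanom6A and m6Anet in WT and by the same 4 tools in KO. It lies 26 bases from the GGACC at 55597190, which none of these 4 tools listed in KO. Tmed9 thus held positions with and without repetition in KO within the first part of a single 3′ UTR, as its 3 positions with at least 6 tools spanned 141 nt.

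The windows of the Tmed10 position with 10 tools and the Tmed9 position with 9 tools, both absent from KO, share a run of 11 bases, GGACTggtttt. The coding sequences of these genes were 54.1% identical, the lowest of all pairs of the 8 genes other than Tmed8, where the highest was 76.2% for Tmed4 and Tmed9. Pairs with Tmed8 were at 62.2% to 67.3% over the aligned bases, which leave out much of its longer coding sequence. The run was searched for on the transcribed strand after these values were seen. It occurs 14 times in the reference transcripts of coding genes with a listed position, which hold 36891 GGACT in all. The pair in Tmed9 and Tmed10 chose the run, and at the other 12 occurrences 3 positions were listed by at least 3 tools in WT or comparison (25%, against 12.8% of all these GGACT), none by at least 6 tools, and 4 were in KO (33.3%, against 27.5%). This is a description of shared letters and not of a site for any factor.

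Tmed4, the other alpha member, had 17 positions in WT, 10 of which were in KO, and none reached 3 tools. Tombo gave 9 of them and Nanom6A 7. Its first position with 2 tools was an AGACT in the coding sequence of exon 1 (chromosome 11, 6274725), listed by Tombo and Nanom6A in WT and by Tombo in KO. Its 2 RRACH within the first 200 nt of the 3′ UTR were in no list. Tmed2, the beta member, had 17 positions in WT, 11 of them in KO, and 1 in KO only. Nanom6A gave 14 of the WT positions and 5 of the KO positions of Tmed2, while ELIGOS and Epinano gave 0 in WT. Tmed2 had 2 positions with 3 tools. The GGACA in the coding sequence, 46 nt before the stop codon (chromosome 5, 124549157), was listed by Tombo, MINES and Nanom6A in WT and by Tombo and MINES in KO, and the AGACT in the 3′ UTR, 902 nt after it (124550105), by Tombo, Nanom6A and m6Anet in WT and by Tombo in KO.

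Among the gamma members, Tmed1 had more positions in KO (13) than in WT (10), and 9 were in both. The GGACA 427 nt after its stop codon (chromosome 9, 21507748) was listed in WT by Tombo, MINES, Nanom6A, m6Anet and ELIGOS and by DiffErr and DRUMMER. In KO the first 4 of these tools listed it again, so this position had comparison listings and was repeated by 4 tools. The AGACT at 21508117 was listed in WT by 5 tools and by Nanocompore, and in KO by Tombo, MINES and Nanom6A. The GGACA at 21508128, 11 bases away, was listed by 6 tools in WT and by xPore in KO. The AGACC in the coding sequence of exon 1 at 21510005 was listed in KO by Tombo, Nanom6A and Epinano and in WT by none, the only such position with at least 3 tools in the family.

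Tmed7 had 19 positions in WT, 13 in KO and 11 in both, and no comparison listing. Its GGACT 56 nt and its GGACC 178 nt after the stop codon were each listed in WT by Tombo, Nanom6A, m6Anet, ELIGOS, Epinano and xPore and in KO by none. The GGACA between them, 143 nt after the stop codon, was listed in WT by the 6 single-mode tools and in KO by Tombo, MINES, Nanom6A and Epinano. Of its 21 positions, 12 lay beyond the coding transcript in a retained-intron transcript. A GGACT there, 2255 bases past the stop codon on the genome, was listed in WT by the 6 single-mode tools and in KO by Tombo, m6Anet and Epinano.

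Tmed3 had the fewest positions in KO, 3 of its 13 WT positions, and all 3 were from Tombo. Of its 21 single-mode WT listings, 3 were repeated in KO by the same tool (14.3%, 4.98 to 34.6), and Tmed8 had the same share from 1 of 7 (14.3%, 2.57 to 51.3), while those of the other 7 genes lay between 43.5% and 54.2%. Nanom6A and MINES listed no position in Tmed3. Its position with most tools was an AGACA 320 nt after the stop codon (chromosome 9, 89699425), listed by Tombo, m6Anet and ELIGOS in WT and by Tombo in KO. Tmed5 had 22 positions in WT, 13 of them also in KO, and 20 of them from 1 tool, with 15 from Tombo and 8 from Epinano. Its first position with 2 tools was a GGACA in the coding sequence of exon 1 (chromosome 5, 108132327), listed by Tombo and MINES in WT and by Tombo in KO.

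Tmed8, which lies outside the 4 subfamilies, has a reference transcript of 7409 nt with 94 RRACH. Its 9 listed positions all lay between 4351 and 6157 nt after the stop codon, and none was in the coding sequence or the earlier 3′ UTR. Of these, 5 were in WT and 5 in KO, with 1 in both. Its first position with 2 tools was a GGACT at 87167855 on chromosome 12, listed by Tombo and Epinano in WT and by none in KO. Whether reads covered the rest of this transcript cannot be read from the lists.

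Repetition in KO differed between tools. Tombo listed 80 positions of the family in WT and 52 of them again in KO (65.0%, 54.1 to 74.5), against 59.7% of its whole WT list. Nanom6A repeated 26 of 55 (47.3%, 34.7 to 60.2), against 65.4%. MINES repeated 7 of 13 (53.8%, 29.1 to 76.8), against 40.2%. These were the 3 highest shares of the 7 tools.

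The share was lower for m6Anet, with 15 of 42 (35.7%, 23.0 to 50.8) against 34.4% of its whole list, and for Epinano, with 13 of 44 (29.5%, 18.2 to 44.2) against 16.5%. It was lowest for ELIGOS, with 2 of 19 (10.5%, 2.94 to 31.4) against 11.5%. xPore repeated 3 of 10 (30.0%, 10.8 to 60.3), against 24.9%. Over the 6 single-mode tools, 115 of 253 listings were repeated (45.5%, 39.4 to 51.6), against 45.1%. Since repetition in KO was in view when the genes were chosen, these shares describe the family's listings and are not read as a difference from the whole lists.

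**Figure D3:**
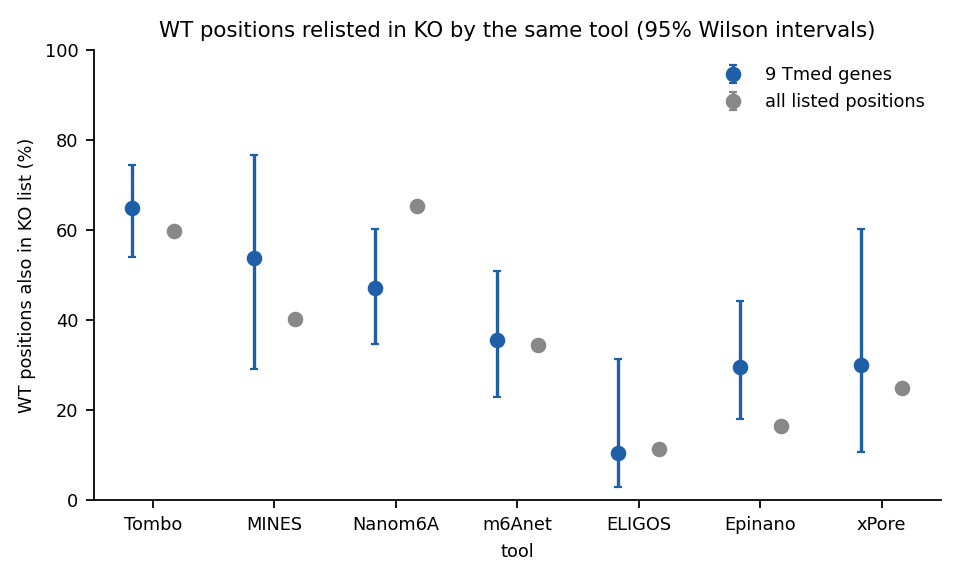
Share of each tool's WT positions that its KO list also held, in percent, for the 9 Tmed genes (blue) and for all listed positions (grey), with 95% Wilson intervals, which for all positions are smaller than the points. The Tmed share runs from 10.5% for ELIGOS to 65.0% for Tombo, and the share of all positions from 11.5% for ELIGOS to 65.4% for Nanom6A.

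In both libraries, 8 positions of the family were listed by at least 3 of the same tools (5.84% of 137, 2.99 to 11.1), against 2.0% over the series. They lay in 4 genes, Tmed1, Tmed7, Tmed9 and Tmed10, and 15.6% of all genes with a listed position had such a position. At least 4 tools repeated 4 positions, which are the GGACT of Tmed10 at 85343491 and the GGACA of Tmed9 at 55597164, of Tmed1 at 21507748 and of Tmed7 143 nt after the stop codon. Among the 8, 6 were GGAC, against 42 of the family's 154 positions, 63.0% of the positions so repeated over the series and 33.0% of all its listed positions. A run of at least 5 equal bases within 10 bp was found at 1 of the 8 and at 16 of the 154. This was not counted over the series, so it cannot be set against a share of all listed positions. Without Tombo 5 positions were repeated by at least 3 tools, and 24 were repeated by at least 2 tools of all.

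Positions in a comparison list numbered 9 (6.57% of 137, 3.49 to 12), against 2.45% over the series. They lay in Tmed1, Tmed9 and Tmed10, and 14.5% of all genes with a listed position had one. Nanocompore gave 6, DiffErr 5 and DRUMMER 5. Of the 9, 7 were also in a KO list, against 76.5% of comparison positions over the series, and the only 2 that were not are the GGACT of Tmed10 at 85343229 and the GGACT of Tmed9 at 55597049. All 9 lay in the 3′ UTR, which held 61.2% of the comparison positions on coding transcripts over the series.

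**Figure D4:**
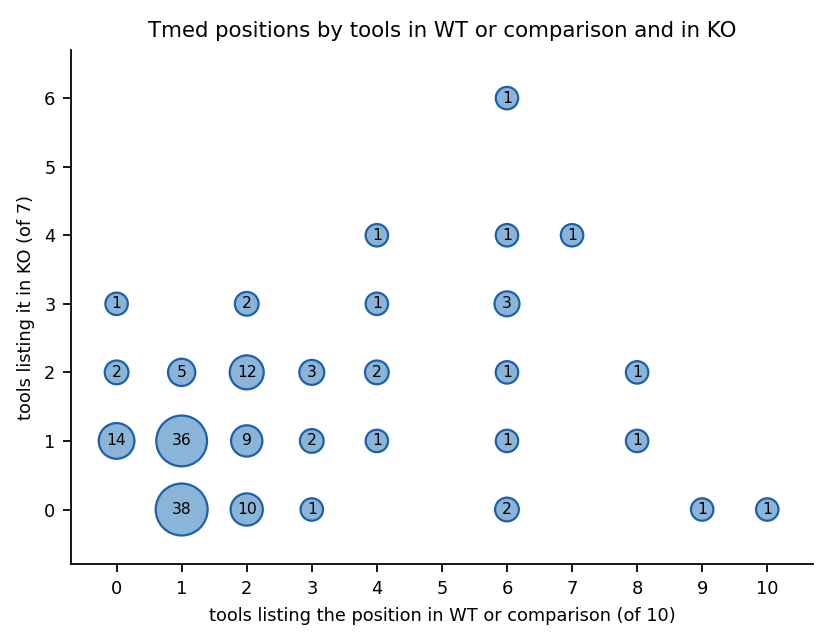
Tmed positions by the number of tools that listed them in WT or comparison (x axis, of 10) and in KO (y axis, of 7), with the number of positions in each circle, whose area grows with it. Most positions sit at 1 tool on the x axis, while of the 14 positions with at least 6 tools 4 were in no KO list and 1 was in 6 KO lists.

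The share of positions also in KO was set against the number of tools in WT or comparison. It was 41 of 79 positions with 1 tool (51.9%), 23 of 33 with 2 (69.7%), 10 of 11 with 3 to 5 (90.9%) and 10 of 14 with at least 6 (71.4%). Over all positions of the series the shares were 52.8%, 69.0%, 73.8% and 72.8%. Of the 14 positions with at least 6 tools, the 4 not in KO were those named above in Tmed10 and Tmed9 and the GGACT and GGACC of Tmed7 56 and 178 nt after the stop codon.

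The place on the transcript was read for the 134 positions on a reference coding transcript. Of these, 29 lay within 200 nt of the stop codon (21.6%, 15.5 to 29.4), against 21.1% of positions over the series. When only positions with several tools were counted, the share was highest at the start of the 3′ UTR. Of the 23 RRACH in the first 200 nt of the 3′ UTR of the 9 genes, 14 were listed by at least 3 tools in WT or comparison (60.9%, 40.8 to 77.8), against 12.6% over coding genes with a listed position. Further along the 3′ UTR it was 7 of 186 (3.76%), against 2.82%, and in the coding sequence 2 of 92, against 2.57%.

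These 14 positions were 4 of 5 RRACH in Tmed7, 4 of 4 in Tmed9, 3 of 4 in Tmed10 and 3 of 4 in Tmed1. The other 5 genes had 6 RRACH in that stretch, of which 1, in Tmed2, was in WT and in KO and none reached 3 tools. The positions listed by 10 tools in Tmed10 and by 8 tools in Tmed9 lay just outside it, at 201 and 202 nt. All 23 positions with at least 3 tools on a reference transcript lay in the last exon, which held 234 of the 308 RRACH, and 0 of the 74 RRACH of other exons had at least 3 tools. Over coding genes with a listed position the shares were 4.66% of RRACH in the last exon and 1.78% in other exons. In KO, 12 of the 23 RRACH at the start of the 3′ UTR were listed (52.2%, 33.0 to 70.8), against 27 of 92 in the coding sequence (29.3%, 21 to 39.3) and 49 of 186 further along the 3′ UTR (26.3%, 20.5 to 33.1). Over coding genes with a listed position these shares were 35.1%, 22.7% and 16.5%.

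**Figure D5:**
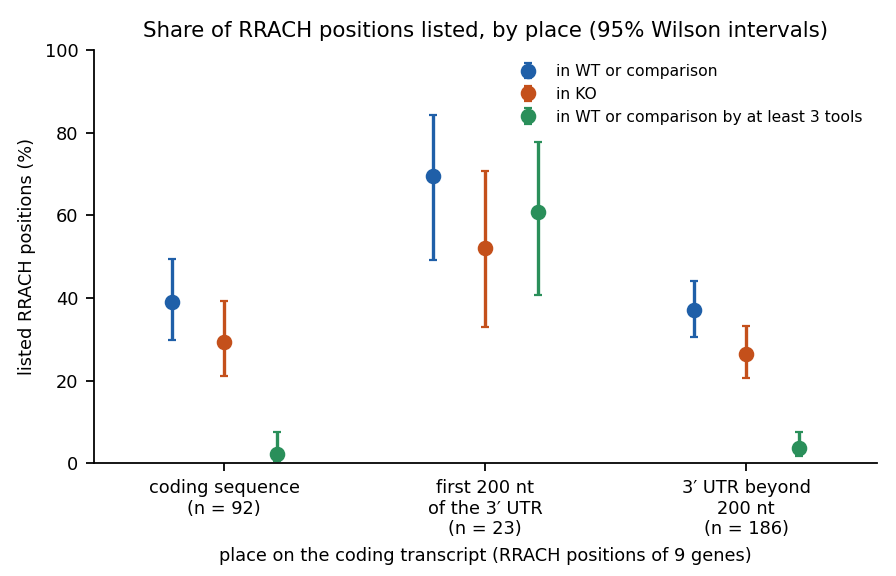
Share of the RRACH positions of the 9 reference transcripts that were listed in WT or comparison (blue), in KO (orange) and in WT or comparison by at least 3 tools (green), in percent with 95% Wilson intervals, by place on the transcript. In the first 200 nt of the 3′ UTR 60.9% of positions had at least 3 tools (14 of 23), and in the coding sequence 2 of 92 did.

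Support also differed with the 4-mer at the start of RRACH. At least 3 tools in WT or comparison listed 15 of 70 GGAC (21.4%), against 8.72% over coding genes with a listed position, 5 of 81 AGAC (6.17%), against 2.27%, 2 of 63 GAAC (3.17%), against 1.28%, and 1 of 94 AAAC (1.06%), against 0.554%. Any tool in WT or comparison listed 54.3% of GGAC, 37.0% of AGAC, 34.9% of GAAC and 34.0% of AAAC. In KO any tool listed 30.0% of GGAC, 30.9% of AGAC, 31.7% of GAAC and 23.4% of AAAC. Over coding genes with a listed position these KO shares were 26.6%, 23.6%, 16.7% and 16.4%. At least 2 tools in KO listed 17.1% of GGAC, 8.64% of AGAC, 9.52% of GAAC and 9.57% of AAAC of the family. The comparison lists of DiffErr and DRUMMER held GGAC only in these genes, 5 of 5 positions each, where GGAC made up 78.9% and 80.4% of the whole lists. The 4-mers of MINES are set by the tool, which outputs GGACH and AGACT. These were nearly all its positions in the series (99.8%), so its listings add to the support of GGAC and AGAC by construction. m6Anet listed 0 AAAC among its 42 WT and 21 KO positions of the family. The study proposes that this tool had little training on AAACH. The share of AAAC in its whole lists was not counted.

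The proteins that work with the p24 family were counted from lists of the COPI coat, the COPII coat with Sar1, other cargo receptors, the Arf1 cycle and Golgi stacking partners. Of these 39 genes, 37 had a listed position, 37 in WT or comparison and 36 in KO, where 46.9% of all coding genes had a listed position. A comparison position was found in 6 of these 37, against 14.5% of all genes with a listed position, and a position repeated in both libraries by at least 3 tools in 10, against 15.6%. For the COPI coat, which carries p24 proteins back from the Golgi, all 9 genes had positions, 1 had a comparison position and 3 had a repeated one. For the COPII coat, which carries them out of the endoplasmic reticulum, these numbers were 10 of 12 genes, 2 and 3, and for the other cargo receptors 11 of 11, 1 and 2.

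The position repeated by most tools in these genes was a GGACA in the coding sequence of Copa, a COPI subunit (chromosome 1, 172119937, plus strand), which 4 tools listed in both libraries. In 9 other genes the most was 3 tools. Of these, the positions with most tools in WT or comparison were a GGACA in the coding sequence of Surf4, a cargo receptor (chromosome 2, 26922045, minus strand), listed by 7, and a GGACT in the 3′ UTR of Sar1a, the GTPase that starts COPII assembly (chromosome 10, 61691438, plus strand), listed by 6.

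Genes with a pattern like that of Tmed10, the member with most positions, were found by the Euclidean distance of log2(number of positions + 1) over the 17 lists, among 9156 genes with at least 5 positions. The nearest were Ube2l3 (distance 2.29), Nxt1 (2.34), Tgif1 (2.40), Mrps2 (2.42) and Dnajb1 (2.49). Within the family, Tmed9 was nearest at 3.31, rank 61, then Tmed7 at 3.52, rank 108, and Tmed1 at 4.50, rank 591. The other members were further away, the furthest being Tmed8 at rank 7110.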

How the data were processed

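DRS reads of 1 WT and 1 KO library were basecalled, aligned to the GENCODE mouse transcriptome of GRCm38 (mm10 per the labels) and passed to each tool by the authors, who converted calls to genome positions. The deposited lists hold 1-base positions with a strand and a transcript or gene name. No score, rate or coverage is given, and the cut-off behind each list is not stated with it, so depth and precision per position are unknown.

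Unique positions (chromosome, start and strand) of the 17 lists were intersected with exons on the same strand (GENCODE M21, a later release than the authors' on the same build). The reference transcript of a gene was a coding one, and distances for positions outside it are genomic. Sequences were read from GRCm38.p6. Support was the number of tools. Shares have 95% Wilson intervals. The family, its gene lists and the naming rule were chosen with earlier results of these data known. Named positions were those repeated in both libraries by at least 4 tools, those in a comparison list, the one with most tools in each gene, and those in KO by at least 3 tools and not in WT, while positions outside this rule were named after their values were seen. The rules for naming genes were the 5 nearest in pattern and the 3 pathway genes with the most repeated position. The counting was tested on simulated data. Python 3.11.15 was used with numpy 2.4.6, pandas 2.3.3, scipy 1.17.1, pysam 0.24.0, biopython 1.88, matplotlib 3.10.9 and bedtools 2.31.1.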

Additional observations from a re-analysis of the deposited data

How the results depend on the processing

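Of 44 alternative settings of the family's counts and shares, 34 left the value within 1.5 times the main count or within its interval, and 10 moved it. Joining positions within 5 bp, assigning genes by the name on the line and leaving out MINES moved no value by this rule. Taking RRACH only and dropping positions in exons of more than 1 gene could not move a value. All 154 positions were in RRACH, and none was in exons of more than 1 gene. Without Tombo the counts were 118 in any list, 101 in WT or comparison and 70 in KO, which the rule takes as not moved. Counted as 1 site per line, which counts a position once for every list and transcript, the family had 486 sites in any list, 310 in WT or comparison and 176 in KO. The share of single-mode WT listings repeated in KO was 36.4% without Tombo and 67.6% when a KO list of any tool counted as a repeat. Positions repeated in both libraries numbered 5 without Tombo, 24 with at least 2 tools and 4 with at least 4 tools. The share near the stop codon was 8.96% within 100 nt and 41.8% within 400 nt. No paired analysis was possible because each condition had 1 library and no test between them was made, and no library could be left out for the same reason. Positions with few reads cannot be told from well-covered ones, which limits every count here.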
